A study of Mus musculus with 9 samples.

Results

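The comparison is between LSK cells of mice that carry a conditional mutant Dnmt3a allele but no Cre recombinase and LSK cells of Dnmt3a wild-type mice that carry Mx1-Cre. Its members are 5 of the 9 RNA libraries of the series, 2 Cre-negative and 3 wild-type, chosen by the genotype in the sample titles, and all 39179 Ensembl gene rows of the raw count table were considered. The Cre-negative libraries, titled cKI_Cre_neg_780 and cKI_Cre_neg_819, are called A and B. The wild-type libraries are wt_Mx_pos_820, wt_Mx_pos_823 and wt_Mx_pos_825, and 3 wild-type values in a row are in that order. Every gene is given in both Cre-negative libraries separately, because the pair diverged from each other more than any pair of wild-type libraries did.

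LSK cells are the bone marrow fraction that lacks lineage markers and carries Sca1 and cKit. It holds haematopoietic stem cells and the multipotent progenitors that begin to lean towards the erythroid, megakaryocytic, myeloid or lymphoid fates. DNMT3A is a de novo DNA methyltransferase, and its gene is among those most often mutated in clonal haematopoiesis and acute myeloid leukaemia. The Mx1 promoter that drives Cre responds to interferon, which poly(I:C), a synthetic double-stranded RNA, induces, and it is active in interferon-responsive cells beyond the blood.

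The animals were C57BL/6 mice aged 6 months, and the labels give all groups the same 5 intraperitoneal injections of poly(I:C). Wild-type animals are labelled wt_Mx+ and Dnmt3a+/+ in the design text. The Cre-negative animals are labelled cKI_Cre- and are given the genotype Dnmt3a+/- there, while 4 further libraries from cKI_Mx+ animals (Dnmt3a+/m, called mutant) entered the fit and are used only to place named genes. The labels do not say what +/- stands for, or in what state the conditional allele is without Cre, so a lower Dnmt3a level here cannot be assigned to a form of the allele. The comparison also joins the allele with the absence of Cre, and the 2 cannot be told apart. No source used here says whether each library was 1 animal or a pool, so p-values measure the spread between these libraries.

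Counts assigned to genes ranged from 47792306 in library A to 58405879 in library B. Both groups mixed libraries with and without Y-linked transcripts: A, wt_Mx_pos_823 and wt_Mx_pos_825 held them, and B and wt_Mx_pos_820 did not and held Xist instead. Library A also stood apart in its 50 most abundant genes, which took 15.7% of its counts against 11.4% to 12.1% in the other 8 libraries. Lars2, the mitochondrial leucyl-tRNA synthetase, was at 32985 CPM (counts in 1000000, on TMM-scaled library sizes, the scale of all levels below) in A and 2261 in B, against 1957, 2267 and 4960 in wild type. The sort markers were expressed in all 5 libraries. Kit, the stem cell factor receptor, lay between 369 and 539 CPM. Ly6a, which encodes Sca1, lay between 27.2 and 44.2 CPM and was lower in both Cre-negative libraries than in wild type. Ly6g, the surface marker of mature neutrophils, was at most 0.905 CPM. Even so, 17 of 18 mature neutrophil genes lay above wild type in A (31.8% of all genes did), as described further on.

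Dnmt3a (ENSMUSG00000020661, chromosome 12, 3806007 to 3914443 on GRCm38) was lower in both Cre-negative libraries than in every other library. It was at 118 CPM in A and 93.5 CPM in B, against 173, 148 and 157 CPM in wild-type libraries wt_Mx_pos_820, wt_Mx_pos_823 and wt_Mx_pos_825. The mutant libraries, in which the allele had met Cre, lay between 153 and 171 CPM, within the wild-type range. The groups did not overlap, and the fitted log2 difference of Cre-negative from wild type was -0.59 (SE 0.125), which is 1.51-fold more in wild type. In edgeR's quasi-likelihood test the unadjusted p was 0.000722 and the p adjusted over all 18576 genes tested was 0.594, so Dnmt3a did not pass the threshold of 0.05. Without the mutant libraries, edgeR gave -0.60 with an unadjusted p of 0.00954, and Dnmt3a did not pass. DESeq2 on all libraries gave -0.61 with an adjusted p of 0.0205. With B as the lone Cre-negative library the edgeR difference was -0.80 (adjusted p = 0.0112), and with A alone it was -0.45 (adjusted p = 0.122). These lone-library fits take the spread from the other groups. The deposited counts are per gene, so they do not separate the alleles.

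Of 28 tested genes within 1000000 bases on either side, 1 (Fkbp1b, a binding protein of calcium release channels) lay above wild type in both Cre-negative libraries, 0 lay below (6.25% and 5.12% of all genes did, so neither count stands apart), and 0 had an unadjusted edgeR p under 0.05. The smallest p among them was 0.0932, for Mfsd2b, the sphingosine-1-phosphate exporter of red cells, at 23.8 CPM in A and 166 in B against 57.3, 40.8 and 40.2 in wild type. Mfsd2b followed the split between the Cre-negative libraries described further on.

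Of 22 measured genes that write, read or remove DNA methylation, 3 (13.6%) lay below all wild-type libraries in both Cre-negative libraries. Of all genes 5.12% did. The 1 gene above in both was 4.55% of the list, under the 6.25% of all genes. The 3 lower genes were the targeted Dnmt3a, Tdg, the glycosylase that excises oxidised methylcytosine, and Dnmt3l, the catalytically inactive partner of the de novo enzymes. Tdg was at 21.8 and 22.4 CPM in A and B against 27.9, 32.5 and 30.1 in wild type, and the Cre-negative libraries were closer together than for Dnmt3a or Dnmt3l. Dnmt3l was close to silent, at 0.147 and 0.202 against 0.391, 0.361 and 0.397 CPM. Gadd45a, a stress gene proposed to act in demethylation, was higher, at 9.37 and 16.8 CPM against 9.11, 7.07 and 7.42. Dnmt3b, the other de novo enzyme, was at 109 and 92.6 CPM against 107, 137 and 131, with overlapping groups, and the maintenance enzyme Dnmt1 overlapped too, at 589 and 695 CPM against 565, 1004 and 809. None of the 22 passed the edgeR threshold, and their median log2 difference was -0.12, beside 0.02 over all genes tested.

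Across all 18576 genes tested, edgeR called 0 genes higher and 0 lower in Cre-negative LSK cells (0% in each direction). The smallest adjusted p was 0.421, and 972 genes had an unadjusted p under 0.05, of which 676 were higher (3.64%) and 296 lower (1.59%). DESeq2 called 44 genes higher (0.217% of 20323) and 12 lower (0.059%), and limma-voom with quality weights called 0, with 342 genes at an unadjusted p under 0.05. In simulated data of this comparison, the edgeR test recovered 1.35% of 1.5-fold changes, 28.6% of 2-fold changes and 65.4% of 4-fold changes. Both Cre-negative libraries lay above all 3 wild-type libraries for 1161 genes (6.25%) and below them for 952 (5.12%), and these shares are the background for each count of genes whose groups did not overlap.

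The 12 genes of lowest p among those higher in both libraries have varied roles. Mrvi1 encodes a partner of the inositol trisphosphate receptor and passed in edgeR with either Cre-negative library alone. Mrvi1 was at 13.5 and 10.7 CPM against 6.48, 5.46 and 5.53 in wild type. Its mutant libraries lay in between, at 7.37 to 8.34 CPM.

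Other genes were higher than wild type in the mutant libraries too. Psma8, which encodes a proteasome subunit of male germ cells, was at 22.0 and 23.2 CPM against 11.4, 13.0 and 12.9 in wild type and 19 to 24.8 in mutant libraries. Rapgefl1, related to guanine nucleotide exchange factors, was at 4.34 and 3.04 CPM against 1.51, 1.65 and 1.67, with 3.80 to 5.37 in mutant. Platr17, a transcript tied to pluripotent cells, was at 2.38 and 2.25 CPM against 0.764, 0.984 and 0.644. Unc5cl, a death-domain protein, was at 5.39 and 5.64 CPM against 2.35, 2.37 and 2.82, and its mutant libraries reached 3.59 to 4.64. For these 4 genes the Cre-negative libraries lay close together, within 1.42-fold of each other.

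A further set was higher in both libraries but most of all in B. Trib2, a pseudokinase that promotes degradation of the myeloid factor C/EBPalpha, was at 29.1 CPM in A and 88.3 in B against 20.1, 11.6 and 17.5 in wild type (log2 1.84, SE 0.372). Mmp14, a membrane-bound matrix metalloproteinase, was at 20.1 and 39.1 CPM against 11.2, 9.41 and 12.8, and its mutant libraries, at 20.4 to 23.9, resembled A. Hebp1, a haem-binding protein, was at 16.8 and 31.8 CPM against 12, 8.17 and 8.59. Aplp2, a relative of the amyloid precursor protein, Stard10, a lipid transfer protein, and Lmcd1, a LIM domain protein, had the same order, with B 1.53-fold, 1.24-fold and 2.38-fold above A.

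**Figure D1:**
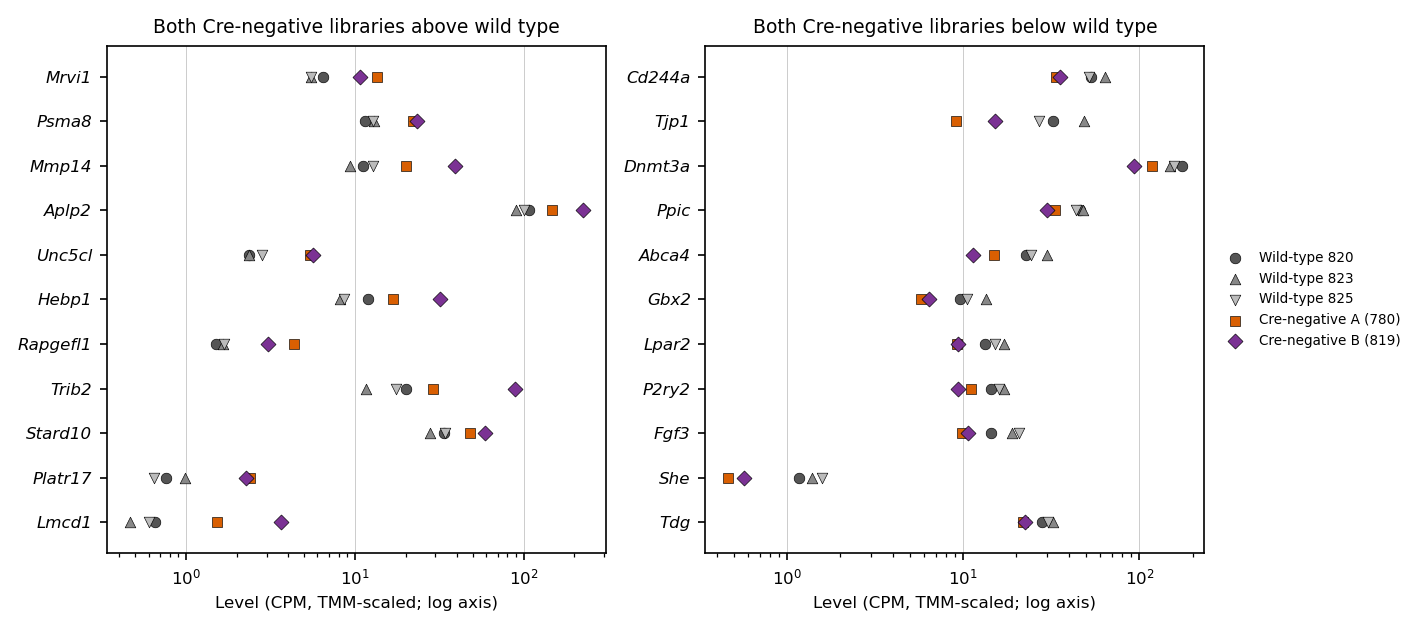
Level in each library (CPM, log axis) of 11 of the 12 genes with the lowest p among those higher (left) and 11 of the 12 among those lower (right) in both Cre-negative libraries than in all 3 wild-type libraries; squares are A, diamonds B and grey symbols wild type. The pair nearly coincides for Psma8, Lpar2 and Tdg, and stands apart for Trib2, Mmp14 and Lmcd1, where B is the higher.

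Of the 12 genes lower in both libraries, Tjp1 had the largest difference. Tjp1, the tight junction scaffold ZO-1, was at 9.16 CPM in A and 15.1 in B against 32.2, 48.3 and 27.1 in wild type (log2 -1.56, SE 0.326, edgeR adjusted p = 0.594, DESeq2 adjusted p = 0.00104). Its mutant libraries lay at 12.1 to 20.8 CPM, so all carriers of the allele were under the wild-type range. Cd244a, a SLAM family receptor of natural killer cells and progenitors, was at 33.5 and 35.5 CPM against 52.8, 63.5 and 51.9. She, an SH2 domain adaptor, was near the detection limit, at 0.463 and 0.568 against 1.17, 1.39 and 1.57 CPM.

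The other lower genes included Ppic, Abca4, Gbx2, Lpar2, P2ry2, Fgf3 and Tdg, beside Dnmt3a. Lpar2, a receptor for lysophosphatidic acid, was at 9.18 and 9.34 CPM against 13.3, 17.0 and 15.2, and P2ry2, a receptor for extracellular nucleotides, at 11.1 and 9.38 against 14.3, 17.0 and 16.0. Fgf3, a growth factor, was at 9.79 and 10.7 CPM against 14.3, 18.9 and 20.6. Among the 12 lower genes the widest gap between A and B was 1.65-fold, for Tjp1, and among the 12 higher genes it was 3.04-fold, for Trib2. With DESeq2 21 of the 24 named genes passed, beside 0.217% of all genes called higher and 0.059% called lower. The 24 were chosen by low p in these same libraries, so this count is no independent support.

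Interferon-inducible GTPases formed the gene group with the largest share of members higher in both Cre-negative libraries. These proteins, the immunity-related GTPases and guanylate-binding proteins, attack the vacuoles of intracellular pathogens, and interferon switches their genes on. Of 14 measured, 7 lay above all wild-type libraries in both (50%, beside 6.25% of all genes). The 0 below stand beside 5.12% of all genes, a share at which a list of this size could hold none. All 14 had a positive fitted difference, beside 9887 of 18576 genes tested. None passed the edgeR threshold over all genes. Higher with an unadjusted edgeR p under 0.05 were 7, beside 3.64% of all genes. The median log2 difference was 0.62, with 0.54 in B and 0.27 in A, beside 0.01 in each library over all genes. This list was drawn up with earlier results of these data known.

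The promoters of these genes are shown because the 7 include members of 1 chromosome 11 family whose start sites share a motif. RefSeq start-site windows (250 bases before to 50 after the start, GRCm38.p6) were available for 9 of the 14 genes, in 10 windows. The interferon-stimulated response element, searched on both strands as GAAA, any 2 bases and GAAA, was in 8 of these 10 windows (80%), against 3.22% of the 15074 windows of genes tested. The list was defined by interferon response, so this share is not a finding of these data. The element was also in 36.6% of windows of interferon-stimulated genes, whose median log2 difference was 0.00. Windows of Irgm1 and Gbp3, which are not among the 7, held it too. The element is in capitals below, read on the strand of the gene, and where it sits on the other strand its complement (TTTC, any 2 bases, TTTC) is shown. The first base of the match lies 34 bases before the start in Igtp, 64 in Irgm2, 77 in Tgtp1, 70 in Tgtp2 and 53 in Gbp7. A match describes these letters and does not show that a factor was bound. The windows are Igtp (chr11:58199306-58199605, plus strand), Irgm2 (chr11:58214727-58215026, plus strand), Tgtp1 (chr11:48992197-48992496, minus strand), Tgtp2 (chr11:49064163-49064462, minus strand) and Gbp7 (chr3:142530086-142530385, plus strand).
Igtp: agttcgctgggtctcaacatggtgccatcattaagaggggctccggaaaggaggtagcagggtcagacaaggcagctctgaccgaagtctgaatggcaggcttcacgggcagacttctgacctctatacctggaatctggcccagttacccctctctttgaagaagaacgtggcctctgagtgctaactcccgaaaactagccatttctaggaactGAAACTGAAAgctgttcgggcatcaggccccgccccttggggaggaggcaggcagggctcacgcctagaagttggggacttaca
Irgm2: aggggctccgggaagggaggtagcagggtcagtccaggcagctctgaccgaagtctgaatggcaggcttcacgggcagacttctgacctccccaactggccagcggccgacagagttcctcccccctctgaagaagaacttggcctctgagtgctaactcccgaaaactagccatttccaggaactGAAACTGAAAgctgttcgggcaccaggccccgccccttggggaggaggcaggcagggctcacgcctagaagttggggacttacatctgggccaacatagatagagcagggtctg
Tgtp1: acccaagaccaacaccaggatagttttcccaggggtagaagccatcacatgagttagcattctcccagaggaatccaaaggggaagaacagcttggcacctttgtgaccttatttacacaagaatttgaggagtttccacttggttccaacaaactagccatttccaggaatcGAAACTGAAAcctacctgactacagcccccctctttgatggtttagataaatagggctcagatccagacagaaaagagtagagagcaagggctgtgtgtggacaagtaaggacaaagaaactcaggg
Tgtp2: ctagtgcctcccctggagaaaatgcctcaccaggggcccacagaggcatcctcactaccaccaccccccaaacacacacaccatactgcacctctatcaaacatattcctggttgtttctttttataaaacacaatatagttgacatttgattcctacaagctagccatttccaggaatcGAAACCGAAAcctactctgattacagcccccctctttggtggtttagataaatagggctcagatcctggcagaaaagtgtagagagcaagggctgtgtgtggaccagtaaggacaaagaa
Gbp7: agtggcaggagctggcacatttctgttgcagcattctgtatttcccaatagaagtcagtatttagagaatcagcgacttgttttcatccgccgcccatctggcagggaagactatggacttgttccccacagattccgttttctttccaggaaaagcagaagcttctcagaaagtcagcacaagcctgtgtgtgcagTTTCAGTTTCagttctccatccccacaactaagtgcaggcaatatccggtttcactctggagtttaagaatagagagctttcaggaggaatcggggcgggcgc

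Among the immunity-related GTPases, Iigp1 was at 81.9 CPM in A and 134 in B, against 54.9, 37.6 and 56.2 in wild type (log2 1.12, SE 0.267, edgeR adjusted p = 0.698, DESeq2 adjusted p = 0.0357). Tgtp2 was at 73.2 and 134 CPM against 56.0, 51.2 and 54.0 (log2 0.95, SE 0.224, DESeq2 adjusted p = 0.0496). Igtp was at 67.5 and 150 CPM against 56.4, 56.4 and 60.2. In each of the 3, both libraries lay above wild type and B was the higher, and the mutant means of 49.0 CPM (SD 11.0, n = 4), 57.8 (SD 8.29) and 60.7 (SD 8.30) were at the wild-type level. Tgtp1 and Irgm2 kept the same order, at 30.3 and 44.2 against 22.5 to 25.3 CPM, and at 66.5 and 87.7 against 48.2 to 60.7 CPM. Irgm1 separated in B only, at 112 and 215 CPM against 113, 108 and 101. Tgtp1 and Tgtp2 are close copies, so reads that align to both may be missing from either count.

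The guanylate-binding proteins were less uniform. Gbp7 was at 230 and 307 CPM against 213, 227 and 214, with A barely outside the wild-type range, and Gbp2 at 108 and 95.5 against 91.5, 88.8 and 91.0. Gbp4, Gbp8 and Gbp9 went the other way round between the Cre-negative libraries: Gbp9 was at 13.0 CPM in A and 5.73 in B against 6.89, 3.35 and 5.47. In lone-library edgeR fits, 5 of the 14 were called higher with B and 0 with A, beside 1.97% and 0.292% of all genes. Library B, the higher for most of these genes, was also set apart by early red cell genes, whose summed level was 4942 CPM there and 899 to 1320 CPM in wild type, and their part in the result was not tested.

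**Figure D2:**
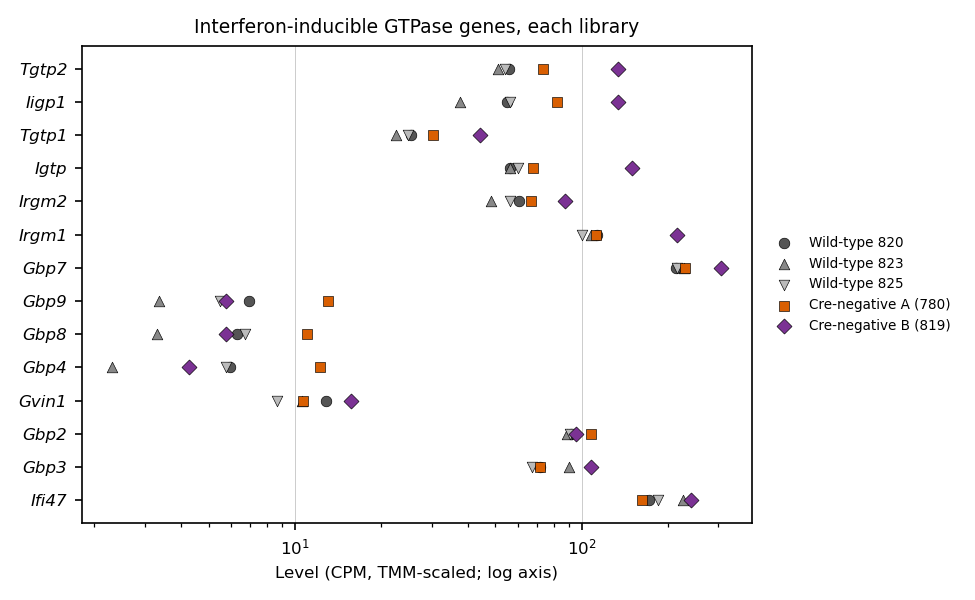
Level in each library (CPM, log axis) of the 14 measured interferon-inducible GTPase genes, ordered by p. The diamond of B lies to the right of the grey wild-type symbols in most upper rows, with the square of A between them, while Gbp9, Gbp8 and Gbp4 are highest in A.

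Of 46 interferon-stimulated genes measured, 7 lay above wild type in both Cre-negative libraries (15.2%, beside 6.25% of all genes) and 2 below (4.35%, beside 5.12%). Their median log2 difference was 0.00, with 23 positive and 23 negative. Whether they differ from the GTPases was not tested. The 7 included transcription factors that transmit the interferon signal: Irf9 was at 124 and 129 CPM against 115, 103 and 101, and Stat2 at 53.6 and 57.7 against 51.5, 38.7 and 42.9. For both, A and B lay close together and just above wild type. Among the effectors, Isg15 was at 2.29 and 2.22 CPM against 2.42, 2.01 and 2.27, and Rsad2 at 27.8 and 20.3 against 27.3, 21.9 and 21.9, both with overlapping groups. The 2 genes below wild type were the effectors Ifit3, at 1.20 and 1.58 against 3.37, 1.61 and 1.87 CPM, and Oas2, at 8.30 and 7.33 against 14.9, 11.6 and 8.90 CPM.

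The Cre-negative libraries also differed from each other. The ratio of B to A exceeded 2-fold for 4058 of the 18576 genes (21.8%), 1583 higher in B (8.52%) and 2475 higher in A (13.3%). Pairs of wild-type libraries had 2198 (11.8%, wt_Mx_pos_820 and wt_Mx_pos_823), 1781 (9.59%, wt_Mx_pos_820 and wt_Mx_pos_825) and 1520 (8.18%, wt_Mx_pos_823 and wt_Mx_pos_825) such genes. Among genes averaging at least 1 CPM the count was 1904 of 13589, against 702, 368 and 239 in the wild-type pairs. Alone against wild type, B gave 381 genes called higher by edgeR (1.97% of 19301) and 269 lower (1.39%), whereas A gave 57 higher (0.292% of 19497) and 5 lower (0.0256%). A single library has no replicate of its own, so the values below describe A and B and not the genotype.

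**Figure D3:**
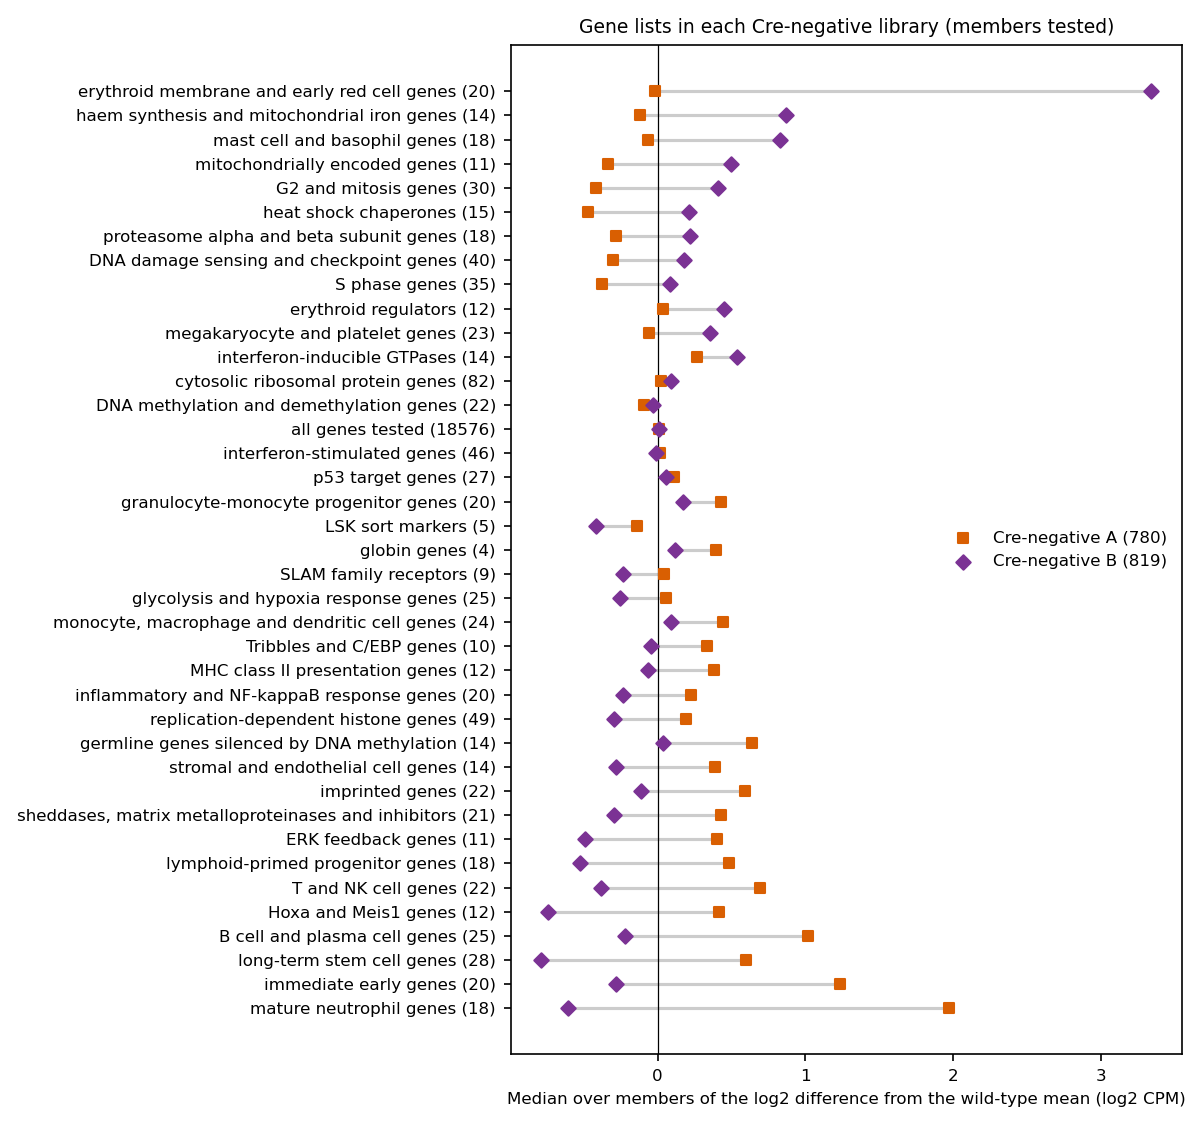
Median log2 difference from the wild-type mean over the members of each gene list, for A (squares) and B (diamonds), with the number of members tested in brackets; lists are ordered by the gap between the libraries. Early red cell genes are at 3.34 in B and -0.02 in A, and mature neutrophil genes at -0.60 in B and 1.97 in A, whereas all genes tested lie at 0.01 in both.

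Genes of the early red cell lineage set B apart. Of 20 measured genes of the red cell membrane and early erythroid cells, 19 were above all wild-type libraries in B (27% of all genes). Over 2-fold higher in B than in A were 19 as well, beside 8.52% of all genes. Their median log2 difference from wild type was 3.34 in B and -0.02 in A. Only Blvrb, which reduces biliverdin, and Car2, a carbonic anhydrase, lay above wild type in both libraries (10%, beside 6.25% of all genes). The sum over these genes was 4942 CPM in B, 1213 in A, and 899 to 1320 in wild type.

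The genes furthest apart between B and A included several of this kind. Kel, the Kell blood group protein, was at 78.2 CPM in B and 4.13 in A, 18.8-fold apart, against 15.4, 3.29 and 2.63 in wild type. Rhag, the Rhesus-associated glycoprotein, was at 69.1 and 3.79 CPM in B and A, 18.1-fold apart, against 12.7, 2.53 and 2.27. Ermap, an erythroid membrane protein, was at 212 CPM in B and 12 in A, against 40.2, 5.84 and 8.61. In each, wild-type library wt_Mx_pos_820 lay well above wt_Mx_pos_823 and wt_Mx_pos_825, but still under B. Car1, a carbonic anhydrase of early erythroid progenitors, was at 1442 CPM in B and 108 in A, against 153, 55.1 and 65.1. Nxpe2, Paqr9, Dnah12 and Mir1949 were also among the 8 genes with the highest ratio of B to A, at 14-fold or more.

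The regulators of the lineage were part of the difference to varying degrees. Klf1, the erythroid Krüppel-like factor, was at 58.8 CPM in B and 5.10 in A against 9.98, 4.48 and 3.82 in wild type. Gata1, the founding GATA factor of erythroid cells, was at 99.1 CPM in B and 12.1 in A against 29.8, 22.4 and 18.9, so that A lay under all wild-type libraries and B over them. Epor, the erythropoietin receptor, was at 20.7 and 4.57 CPM against 5.92, 3.17 and 4.66. Gfi1b, a repressor shared by stem cells and erythroid cells, was high in both, at 69.0 in B and 29.5 in A against 25.6, 12.9 and 21.1 CPM (log2 1.31, SE 0.336, edgeR adjusted p = 0.787, DESeq2 adjusted p = 0.0487). Zfpm1 and Ldb1, cofactors of the GATA complex, lay above wild type in both as well, and A was the higher for each: Zfpm1 was at 59.7 in A and 52.3 in B against 43.3, 32.3 and 43.7 CPM. Lmo2, Nfe2 and Mybl2 overlapped.

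With B alone, edgeR called 13 of the 20 membrane genes, 5 of the 12 regulators and 9 of the 14 haem synthesis and iron genes higher, and 0 lower, beside 1.97% and 1.39% of all genes. With A alone it called 0 in the 3 groups, beside 0.292% and 0.0256% of all genes, a share at which lists of this size would hold about none. Cpox, which makes protoporphyrinogen, was at 119 CPM in B and 25.9 in A against 43.4, 25.8 and 23.8, and Slc11a2, an iron transporter, at 79.8 and 25.3 against 31.2, 28.2 and 25.4. Alas2, the enzyme of later erythroblasts, was not higher, at 2.75 in B and 3.45 in A against 3.37, 5.00 and 3.77 CPM. Globin genes, the mark of late red cells, stayed near the floor in both: Hbb-bs was at 3.10 and 2.91 CPM in B and A against 0.931, 21.2 and 0.946, the high value being wild-type library wt_Mx_pos_823. In bulk RNA, a higher share of cells of a type and more RNA per cell cannot be told apart.

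Library B lacked Y-linked transcripts, as did wild-type library wt_Mx_pos_820, the wild-type library with the highest sum of membrane genes. Against wt_Mx_pos_820 alone the membrane genes of B had a median log2 difference of 2.13, and A against wt_Mx_pos_823 and wt_Mx_pos_825, which held Y-linked transcripts like A, had 0.56. This matched setting was chosen after the data were seen. Library B stayed above in both settings.

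**Figure D4:**
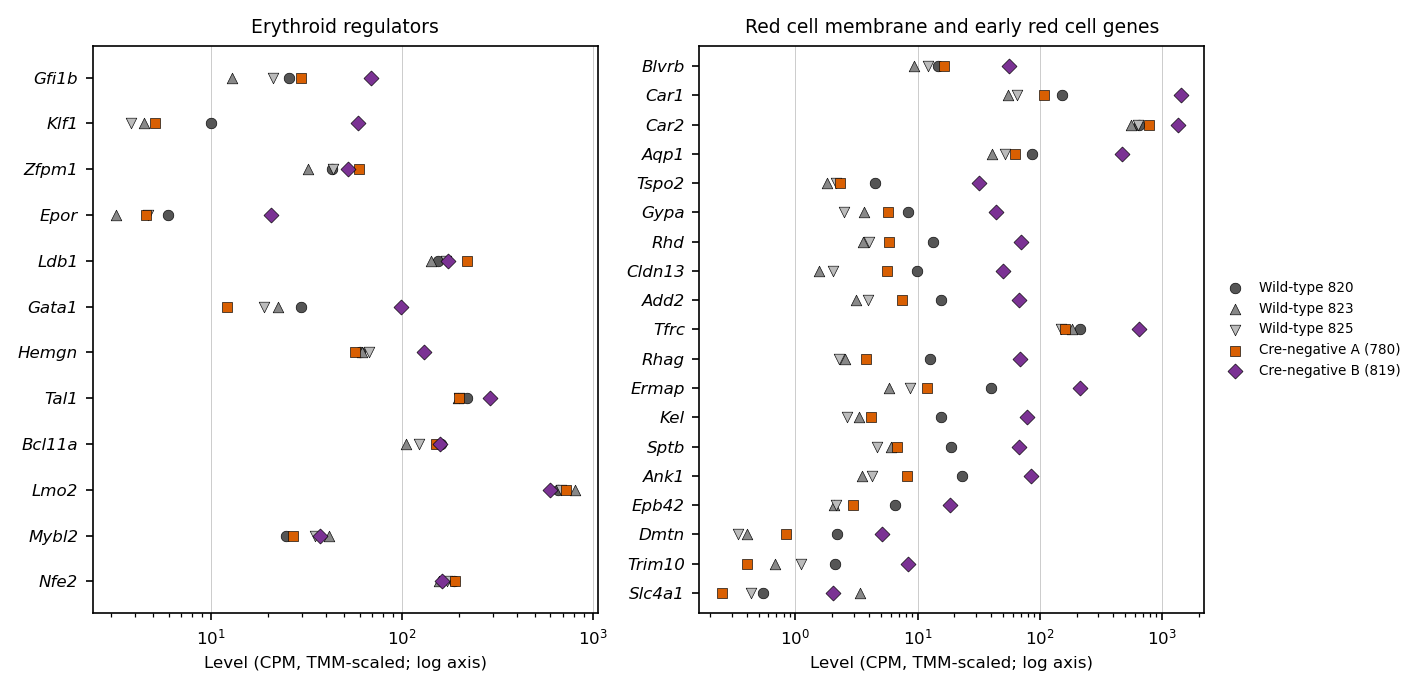
Level in each library (CPM, log axis) of 12 erythroid regulators (left) and 19 of the 20 red cell membrane and early red cell genes (right). In the right panel the diamond of B is the furthest right in all rows but that of Slc4a1, and the square of A lies among the wild-type symbols in most rows.

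Start-site windows of Kel and Epor are shown because both hold AGATAA, 1 form of the motif that GATA factors recognise. The gene of 1 such factor, Gata1, was 8.14-fold higher in B than in A. The motif, searched on both strands, was in 4 of 14 windows of the membrane genes (28.6%) and in 4 of 13 windows of the regulators (30.8%). It was also in 3 of 10 windows of the interferon-inducible GTPases (30%) and 14.6% of those of interferon-stimulated genes. Of the windows of genes tested, 7.10% held it. The share is therefore not particular to the erythroid lists, and a link to Gata1 was not tested. Windows of Ermap, Rhag, Klf1, Gata1 and Aqp1 held no AGATAA on either strand within these 300 bases. Other forms of the motif were not searched or marked, so these windows may still hold a GATA site. Kel (chr6:41704276-41704575, minus strand) has its match 56 bases before the start, and Epor (chr9:21963527-21963826, minus strand) 54 bases before it, as the complement TTATCT. The capitals mark the match.
Kel: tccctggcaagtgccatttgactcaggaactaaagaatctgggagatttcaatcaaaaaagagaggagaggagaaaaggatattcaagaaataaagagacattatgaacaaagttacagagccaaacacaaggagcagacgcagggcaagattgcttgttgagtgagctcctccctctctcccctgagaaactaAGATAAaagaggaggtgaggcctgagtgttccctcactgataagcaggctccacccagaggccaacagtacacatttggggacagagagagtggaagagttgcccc
Epor: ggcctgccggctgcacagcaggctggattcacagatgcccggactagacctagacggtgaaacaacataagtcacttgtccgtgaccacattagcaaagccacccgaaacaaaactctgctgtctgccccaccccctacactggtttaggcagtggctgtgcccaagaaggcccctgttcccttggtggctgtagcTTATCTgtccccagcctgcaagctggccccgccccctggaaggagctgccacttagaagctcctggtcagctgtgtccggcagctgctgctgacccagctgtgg

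Mast cell and basophil genes shared part of this pattern. Of 18 measured, 11 lay above wild type in B (27% of all genes did), 7 in A (31.8% did) and 5 in both (6.25% did). Il1rl1, the interleukin-33 receptor, was at 106 CPM in B and 11.5 in A against 16.3, 12 and 10.6 in wild type, and was called with B alone (adjusted p = 0.000924, edgeR) and not with A alone (adjusted p = 0.73). Those above wild type in both included Hdc, which makes histamine, at 31.5 in A and 28.5 in B against 20.6, 13.2 and 20.9 CPM, and Alox5, the 5-lipoxygenase, at 6.17 and 9.47 against 3.89, 2.49 and 4.37 (DESeq2 adjusted p = 0.0403). Fcer1a, the IgE receptor chain, split, at 2.38 CPM in A and 16.1 in B against 7.65, 9.71 and 5.62. Among megakaryocyte genes, Pf4, platelet factor 4, was at 18.1 in A and 67.5 in B against 29.1, 23.0 and 24.6 CPM, and 13 of 23 lay above wild type in B and 4 in A, beside 27% and 31.8% of all genes.

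Genes of long-term stem cells ran the opposite way. Of 28 measured, 20 lay above all wild-type libraries in A (31.8% of all genes did) and 20 lay below all of them in B (28.1% of all genes did). The median log2 difference was 0.60 in A and -0.79 in B, and in the joint fit it was 0.05. Procr, the endothelial protein C receptor that marks stem cells, was at 72.9 CPM in A and 11.7 in B against 35.0, 39.2 and 49.8 in wild type. Hlf, a stem cell transcription factor, was at 301 and 106 CPM against 262, 147 and 193, and Fgd5 at 52.8 and 12.7 against 31.5, 22.4 and 34.8. Mecom, Robo4 and Esam had the same order: A above, wild type between and B below. Not every member did. Log2 differences from wild type, with A and B each fitted alone, were -0.18 and 0.22 for Slamf1 and -0.09 and 0.06 for Tek. Mllt3 (0.67 and 0.22) and Gata2 (0.40 and 0.16) were positive in both, and Cd48 (-1.03 and -0.33) was negative in both. With B alone edgeR called 8 of the 28 lower and 1 higher, Gfi1b, beside 1.39% and 1.97% of all genes.

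Other early programmes followed the stem cell genes. Of 12 Hoxa and Meis1 genes, 11 lay below wild type in B (28.1% of all genes did) and 10 above it in A (31.8% did): Hoxa9 was at 46.3 CPM in B and 92.0 in A against 67.6, 77.2 and 72.2. Of 18 lymphoid-primed progenitor genes 15 lay below in B and 11 above in A, beside the same shares of all genes. Notch1 was at 54.7 CPM in B and 149 in A against 88.6, 72.5 and 98.6. Flt3, the receptor that marks lymphoid-primed progenitors, was at 348 and 770 CPM in B and A against 508, 518 and 540.

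Division genes were high in B and low in A. Of 30 genes of the G2 phase and mitosis, 21 lay above wild type in B (27% of all genes did) and 25 lay below it in A (29.4% of all genes did), and 0 lay on the same side in both. The median log2 difference was 0.41 in B and -0.41 in A. Mki67, the proliferation antigen, was at 1400 CPM in B and 699 in A against 936, 1035 and 860. Cenpe, a kinetochore motor, was at 224 and 96.2 CPM against 142, 152 and 130, and Hmmr, a spindle protein, at 183 and 84.2 against 101, 133 and 101. Replication genes were less clear in B: of 35 S phase genes, 18 lay below wild type in A and 7 above in B, the second a share under that of all genes. Pcna, the replication clamp, was at 295 in A and 395 in B against 279, 499 and 394 CPM.

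**Figure D5:**
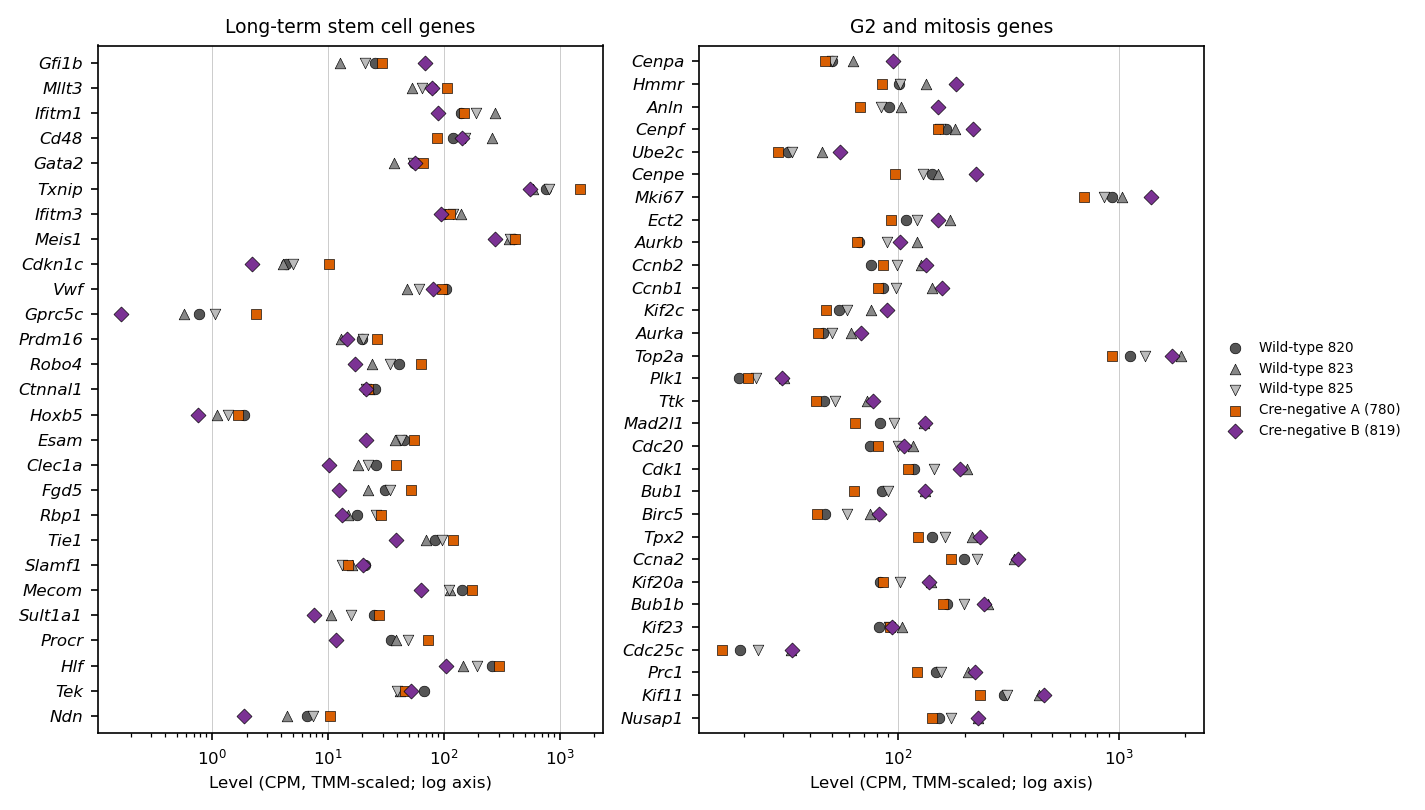
Level in each library (CPM, log axis) of 27 of the 28 long-term stem cell genes (left) and 30 G2 and mitosis genes (right). The order of the Cre-negative symbols reverses between the panels: most stem cell genes lie above all wild-type libraries in A and below them in B, and 25 division genes lie below in A and 21 above in B.

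Mature neutrophil, lymphoid and immediate early genes were higher in A than in wild type and B, though mutant libraries reached similar levels for some of them. Of 18 mature neutrophil genes, 17 lay above wild type in A (31.8% of all genes did) and 7 below it in B (28.1% of all genes did), with medians of 1.97 and -0.60 on the log2 scale. S100a9, a calcium-binding alarmin, was at 153 CPM in A and 12.8 in B against 19, 15.9 and 58.1, and Camp, the cathelicidin, at 17.2 and 1.52 against 1.51, 2.03 and 7.57. The highest wild-type value of both was in wt_Mx_pos_825. The summed level of the list was 674 CPM in A, 263 in B, 339 to 444 in wild type and 440 to 749 in the mutant libraries, the highest being above A. Of this sum Lyz2, also expressed by monocytes and progenitors, was 244 CPM in A, 179 in B and 200 to 231 in wild type. S100a9 ranged from 48.5 to 145 CPM in the mutant libraries. Among granule genes of earlier progenitors, Mpo was at 1280 and 907 CPM against 942, 624 and 930, and Elane at 114 and 40.5 against 54.0, 13.0 and 60.5.

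Of 25 B cell and plasma cell genes 24 lay above wild type in A (31.8% of all genes did), and 8 below in B, near the 28.1% of all genes. Rag1, the recombinase of lymphoid progenitors, was at 22.7 in A and 6.10 in B against 6.37, 5.66 and 9.52 CPM, and Ebf1 at 5.41 and 1.81 against 1.32, 1.91 and 2.23. Of 22 T and NK cell genes 13 lay above in A (31.8% of all genes did), among them Klrb1c, the NK1.1 antigen, at 16.8 and 2.82 against 6.46, 3.41 and 3.82 CPM. Trbc2, a T cell receptor constant region, was above wild type in both, at 2.53 and 0.769 against 0.615, 0.361 and 0.341 CPM. Cd4, a T helper cell marker, was at most 5.12 CPM in the 5 libraries. How far these cells' markers bear on other differences of A was not tested.

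Of 20 immediate early genes 17 lay above wild type in A and 8 below it in B, beside 31.8% and 28.1% of all genes. Fosb was at 32.9 CPM in A and 1.61 in B, 19.9-fold apart, and Jun at 98.3 and 8.12, 12.1-fold apart. These AP-1 subunits also varied among wild-type libraries, from 0.372 CPM in wt_Mx_pos_820 to 8.11 in wt_Mx_pos_823 for Fosb and from 4.12 to 31.3 for Jun. The mutant libraries reached 16.7 CPM for Fosb and 53.9 CPM for Jun. Fos went from 1.55 in wt_Mx_pos_820 to 17.7 in wt_Mx_pos_823, with 62.3 in A and 6.36 in B. Library wt_Mx_pos_820, which had the highest red cell membrane sum in wild type, was also the lowest for all 3. Klf4 and Nr4a2 were the 2 members above wild type in both Cre-negative libraries (10%, beside 6.25% of all genes). Klf4 was at 3.07 and 2.24 against 1.21, 1.14 and 1.63 CPM.

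Further genes had their highest level by far in A. Mir6236, Lars2 and Tpm3-rs7 were among the 8 highest, with Mir6236 at 176 CPM in A and 7.31 in B against 7.71, 9.92 and 21.4. Tpm3-rs7, a tropomyosin retrogene, was at 79.0 and 4.49 CPM against 3.63, 6.91 and 6.26. For each, the wild-type and mutant libraries lay far below A. Whether the reads counted at Lars2 and Mir6236 came from their own transcripts was not tested. Plk2, a stress-responsive kinase, was at 19 and 1.32 CPM against 3.61, 2.53 and 3.52, and Fcnb, a ficolin, at 14.7 and 1.25 against 4.08, 0.763 and 8.12.

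Of 5 surface marker genes (Kit, Ly6a, Cd34, Flt3 and Ptprc), 3 lay below wild type in both Cre-negative libraries, beside 5.12% of all genes. Only Kit and Ly6a among them encode markers that define the LSK fraction here. Ly6a was at 27.2 in A and 30.6 in B against 35.4, 44.2 and 43.3 CPM (log2 -0.50, SE 0.144, edgeR adjusted p = 0.792). Cd34, the sialomucin of progenitors, was at 1017 and 904 against 1109, 1498 and 1271 CPM, and Ptprc, which encodes CD45, at 501 and 468 against 559, 601 and 503. Ptprc missed overlap by a narrow margin. Kit overlapped, at 502 and 407 against 539, 369 and 477 CPM.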

How the data were processed

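RNA came from sorted LSK cells, and the kit removed ribosomal RNA and kept strand, per the labels' protocols. The tools named are STAR, HTSeq 0.5.3p3 and DESeq2, and the build is mm10 (GRCm38), all per the submitters' processing notes. Other versions, the annotation and HTSeq's strand mode were not given in the sources used here, which leaves antisense and overlapping genes uncertain. The authors deposited raw counts per Ensembl gene for 39179 genes, and the 5 summary rows, with 40.5% to 47.3% of reads, were left out here. Reads that did not align uniquely were 21.6% to 28.3%. A second table the authors deposited, a scaled signal, equals these counts divided by 1 factor per library (largest relative deviation 5.22e-15) and entered no test.

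Groups came from sample titles. Libraries of a group differed beyond sampling noise (chi-square per degree of freedom at least 43.4), so each was 1 replicate. Genes kept by filterByExpr were scaled by TMM, and edgeR 4.0.16 (R 4.3.3) fitted 1 mean per group to all 9 libraries, with Benjamini-Hochberg adjustment at 0.05, two-sided. SE is the log2 difference over the square root of F. Log2 differences of single libraries use log2 CPM with a prior count of 2. Simulated data with 200 changed genes (18255 genes) tested the fit. DESeq2 1.42.0, limma 3.58.1, other scalings and filters, a Y-linked covariate and each library left out were alternatives. Symbols came from GENCODE on GRCm38 (37693 identifiers matched) and promoter sequences from RefSeq GRCm38.p6. Intervals and counts cover these libraries only.

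The members and the 39 gene lists (864 symbols, 9 unmatched) were chosen with earlier results of these data known, and lists carry counts and medians, with no test. Named genes were those with a mean of at least 1 CPM, a symbol other than a clone name and no Y linkage: the 12 of lowest p in each direction among those whose groups did not overlap, the 8 highest and 8 lowest ratios of B to A at 5 CPM or more, Dnmt3a, and members of each list by lowest p or role. Some genes that the rule names are not reported here, and counts include them.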

Additional observations from a re-analysis of the deposited data

Results flagged for a closer look

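Abca4, the retinal lipid transporter among the genes lower in both Cre-negative libraries, had 1 mutant library far from the others. It was at 27.87 CPM in mutant library cKI_Mx_pos_830 against 18.79 to 20.1 CPM in the other 3, a gap of 0.856 of the whole range, above Dixon's limit for 4 samples. This mutant library reached the wild-type level of 22.7 to 29.9 CPM, and the Cre-negative libraries, at 15.0 and 11.3 CPM, stayed under all mutant libraries. Of 24 such groups of 4 examined, 1 exceeded the limit, and chance passes it in about 1 in 20.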

How the results depend on the processing

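The number of genes past the edgeR threshold was 0 in both directions with RLE or upper-quartile scaling, either filter, only the 2 groups compared, the Y-linked covariate and gene removals, and limma-voom also gave 0. DESeq2 gave 44 higher and 12 lower. Leaving out 1 library at a time gave 0 to 381 higher and 0 to 269 lower, the calls arising only without A (381 and 269) or without B (57 and 5). Dnmt3a was -0.613 with DESeq2 (adjusted p = 0.0205) and -0.80 to -0.45 with 1 library left out, and passed in edgeR only without A. Genes with both Cre-negative libraries above wild type numbered 1578 to 2894 and below 1415 to 2395 when a wild-type library was left out, most without wt_Mx_pos_820 (2894 and 2395), and below also reached 1771 without wt_Mx_pos_823. The count below was 620 with 1 CPM required in 2 libraries. These counts rise by construction with fewer wild-type libraries. Genes over 2-fold apart between A and B numbered 1904 at a mean of at least 1 CPM. Medians of gene lists, which carry no test, were unstable: 34 of 39 turned sign when 1 library was left out, 18 without A and 14 without B. Without A and without B, early red cell genes were at 3.02 and -0.28, mature neutrophil genes at -0.84 and 1.79, long-term stem cell genes at -0.86 and 0.55, and immediate early genes at -0.37 and 1.25. No paired analysis was possible because library numbers differ between groups. The lone Cre-negative fits assume that library varies like the other groups, and depth limits genes near 1 CPM.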

Other observations

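Genes that DNA methylation keeps silent outside the germline were mostly not measurable, with 14 of 30 passing the filter. Psma8, Tex14 and Hormad2 lay above wild type in both Cre-negative libraries (21.4% of the 14, beside 6.25% of all genes). Tex14, an intercellular bridge protein, was at 2.25 CPM in A and 3.65 in B against 1.53, 0.783 and 1. Hormad2, a meiotic chromosome protein, was at 3.33 and 4.42 CPM against 1.68, 3.05 and 2.80, with a mutant mean of 7.28 CPM (SD 1.62, n = 4). Psma8 was the single member above wild type in both among 18 proteasome subunit genes (5.56%, under the 6.25% of all genes). Of 22 imprinted genes 3 lay above in both (13.6%, beside 6.25% of all genes). Among them was Igf2r, which clears insulin-like growth factor 2, at 101 and 70.6 CPM against 66.4, 44.0 and 54.2.

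Of 27 p53 target genes 4 lay above wild type in both libraries (14.8%, beside 6.25% of all genes): Gadd45a, Zmat3, Sesn2 and Phlda3. Their log2 differences were 0.73, 0.54, 0.38 and 0.25, while the list's median was 0.02, the same as over all genes tested. Among monocyte, macrophage and dendritic cell genes, Slc40a1, the iron exporter ferroportin, was at 30.0 CPM in A and 119 in B against 24.8, 15.2 and 13.2. DNA damage sensing and checkpoint genes divided by library like the division genes: 23 of 40 lay below wild type in A (29.4% of all genes did) and 16 above in B (27% did). Of 15 heat shock chaperones, 13 lay below wild type in A (29.4% of all genes did). In B 7 lay above (27% did) and 2 below (28.1% did). Hsp90aa1 was at 739 in A and 1445 in B against 930, 1649 and 1047 CPM, so B was within the wild-type range. None of these genes passed the edgeR threshold.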
